A study of Mus musculus with 12 samples.

Results

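The 4 mouse genes of the myocyte enhancer factor 2 family, Mef2a, Mef2b, Mef2c and Mef2d, were examined among 22350 protein-coding genes in chromatin immunoprecipitation sequencing (ChIP-seq) libraries of 6 histone marks. They were chosen by name, and every annotated transcription start site (TSS) was counted on its own. The family has 17 such starts from GENCODE M1 and RefSeq, against 70018 TSS windows from GENCODE M1 alone for all protein-coding genes. Starts of 1 gene whose windows overlap share reads, so the 17 starts were also joined into 10 promoter regions, called P1, P2 and P3 in the order in which the polymerase meets them.

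The cells were C2C12, a mouse line derived from skeletal muscle satellite cells of a C3H animal, at passages 15 to 18. Myoblasts were grown almost to confluence in 10% serum. Myotubes were taken about 5 days after serum was withdrawn and were separated from unfused cells by a light trypsin treatment. Each of H3K4me1, H3K4me2, H3K4me3, H3K27ac, H3K27me3 and H3K36me3 was profiled in 1 myoblast and 1 myotube library, which makes 12 libraries of 1 cell line without replicates. Ratios of myotubes over myoblasts therefore compare libraries, no test was possible, and the 95% intervals given cover counting error only. A larger share of cells that carry a mark and more of the mark per cell cannot be told apart in such bulk libraries.

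MEF2 proteins are MADS-box transcription factors that bind an A/T-rich element in many muscle genes. They act together with the myogenic basic helix-loop-helix factors, which bind E boxes, and are held in check by class IIa histone deacetylases. Mef2c has promoters that are used in different tissues. H3K4me3 and H3K27ac mark active promoters, H3K4me1 and H3K4me2 lie at enhancers and promoter flanks, H3K36me3 covers transcribed gene bodies, and H3K27me3 is the mark of Polycomb repression.

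All positions are in the mouse build mm9. Mef2a lies on the minus strand of chr7:74376049-74517744, with P1 holding 2 starts 31 bp apart, P2 55938 bp and P3 75426 bp further into the gene. Mef2b lies on the plus strand of chr8:72676677-72691387, with 3 starts in P1. The nearest start of the gene 2310045N01Rik lies 0 to 17 bp from each of them, so reads there cannot be assigned to 1 of the genes. Mef2c spans chr13:83643033-83806684 on the plus strand, with P1 at its 5' end, P2 with 2 starts 19622 bp and 20943 bp into the gene, and P3 69732 bp into it. Mef2d spans chr3:87946294-87976008 on the plus strand, with 4 starts in P1, and P2 and P3 lie 20588 bp and 25880 bp inside the gene at starts of transcripts annotated as non-coding.

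The 200 bases before a promoter show how differently the promoters of the family are built. They are printed 5' to 3' on the strand of the gene, with CpG dinucleotides in capitals, because Mef2c P1, which had H3K4me3 in the myotube library alone, and the main promoters of Mef2a and Mef2d, which had it in both, differ in them.
Mef2a P1, chr7:74517745-74517944, minus strand: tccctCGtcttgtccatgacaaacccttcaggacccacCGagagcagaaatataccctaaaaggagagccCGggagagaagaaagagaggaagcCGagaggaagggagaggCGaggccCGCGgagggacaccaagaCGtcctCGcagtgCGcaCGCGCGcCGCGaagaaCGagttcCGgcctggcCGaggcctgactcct
Mef2b P1, chr8:72676460-72676659, plus strand: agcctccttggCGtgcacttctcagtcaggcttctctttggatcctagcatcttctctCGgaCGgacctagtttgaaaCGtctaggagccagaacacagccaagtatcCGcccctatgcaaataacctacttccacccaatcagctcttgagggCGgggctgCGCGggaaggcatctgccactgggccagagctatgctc
Mef2c P1, chr13:83642833-83643032, plus strand: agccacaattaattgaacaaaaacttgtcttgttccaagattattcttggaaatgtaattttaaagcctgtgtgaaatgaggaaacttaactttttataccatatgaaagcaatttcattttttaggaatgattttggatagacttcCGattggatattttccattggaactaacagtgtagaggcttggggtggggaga
Mef2c P2, chr13:83662455-83662654, plus strand: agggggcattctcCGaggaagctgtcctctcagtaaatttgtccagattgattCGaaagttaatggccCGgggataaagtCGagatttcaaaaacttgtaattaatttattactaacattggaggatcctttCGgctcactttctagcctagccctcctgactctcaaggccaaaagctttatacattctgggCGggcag
Mef2c P3, chr13:83712565-83712764, plus strand: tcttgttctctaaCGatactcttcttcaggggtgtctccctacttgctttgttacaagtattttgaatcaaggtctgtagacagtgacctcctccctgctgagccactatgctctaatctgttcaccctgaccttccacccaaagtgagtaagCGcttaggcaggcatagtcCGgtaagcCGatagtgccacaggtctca
Mef2d P1, chr3:87946094-87946293, plus strand: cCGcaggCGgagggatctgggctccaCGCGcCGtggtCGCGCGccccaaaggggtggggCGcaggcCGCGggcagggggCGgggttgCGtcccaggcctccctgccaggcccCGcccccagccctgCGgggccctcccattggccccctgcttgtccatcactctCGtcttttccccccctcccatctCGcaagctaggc
The stretch before Mef2c P1 held 1 CpG, against 18 before Mef2a P1 and 17 before Mef2d P1. In windows from 250 bases before to 50 bases after a start, the observed over expected CpG ratio was 0.109 at Mef2c P1, 0.929 at the first start of Mef2a P1 and 0.619 at the first start of Mef2d P1. The median of 69932 such windows over all genes was 0.485. At Mef2c P2 the ratio was 0.612 at the first start and 1.55 at the second. Mef2c P1 was 35.7% G and C, below Mef2a P1 (62.3%) and Mef2d P1 (72%), and the median window was 55.7%.

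The same windows were searched on both strands for a MEF2 site, a CArG box (the site of serum response factor) and the E box CAGCTG. Over all genes 2.57% of windows held a MEF2 site, 1.38% a CArG box and 16.4% the E box. A MEF2 site was found at Mef2a P1, 2 bases before the first start, and at Mef2a P2, 175 bases before its start. No window of Mef2b, Mef2c or Mef2d held a MEF2 site, and no window of the family held a CArG box. Mef2d P3 held 3 E boxes, at 95, 83 and 44 bases before the start.

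Libraries held 1858771 reads (H3K27ac, myoblasts) to 7033100 reads (H3K36me3, myoblasts), and reads that repeated a position and strand made up 0.417% to 3.14% of them. Values are reads in a window and the fold over the number that the mean of the genome gives. Of 9 myotube markers, 8 were past 2-fold higher in the myotube library for H3K4me3, all but Des, and of 6 myoblast markers, Id1, Id3 and Pax7 were past 2-fold lower. None of 12 markers of neurons, lymphocytes, endothelium, heart and adipocytes, cells that also use Mef2 genes, reached 20 reads of H3K4me3 or of H3K27ac in the libraries of the mark together. The median ratio over TSS windows was 0.602 for H3K4me2 and 0.59 for H3K27ac, and 0.772 to 1 for the other marks, so ratios near those medians follow the libraries as a whole.

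The family split by promoter. H3K4me3 and H3K27ac appeared at Mef2c P1 in myotubes, at the same time as Mef2a P1, Mef2d P1 and Mef2c P2 carried H3K4me3 in both cell types. Mef2b had hardly any of either mark in the myoblast and the myotube library.

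**Figure D1:**
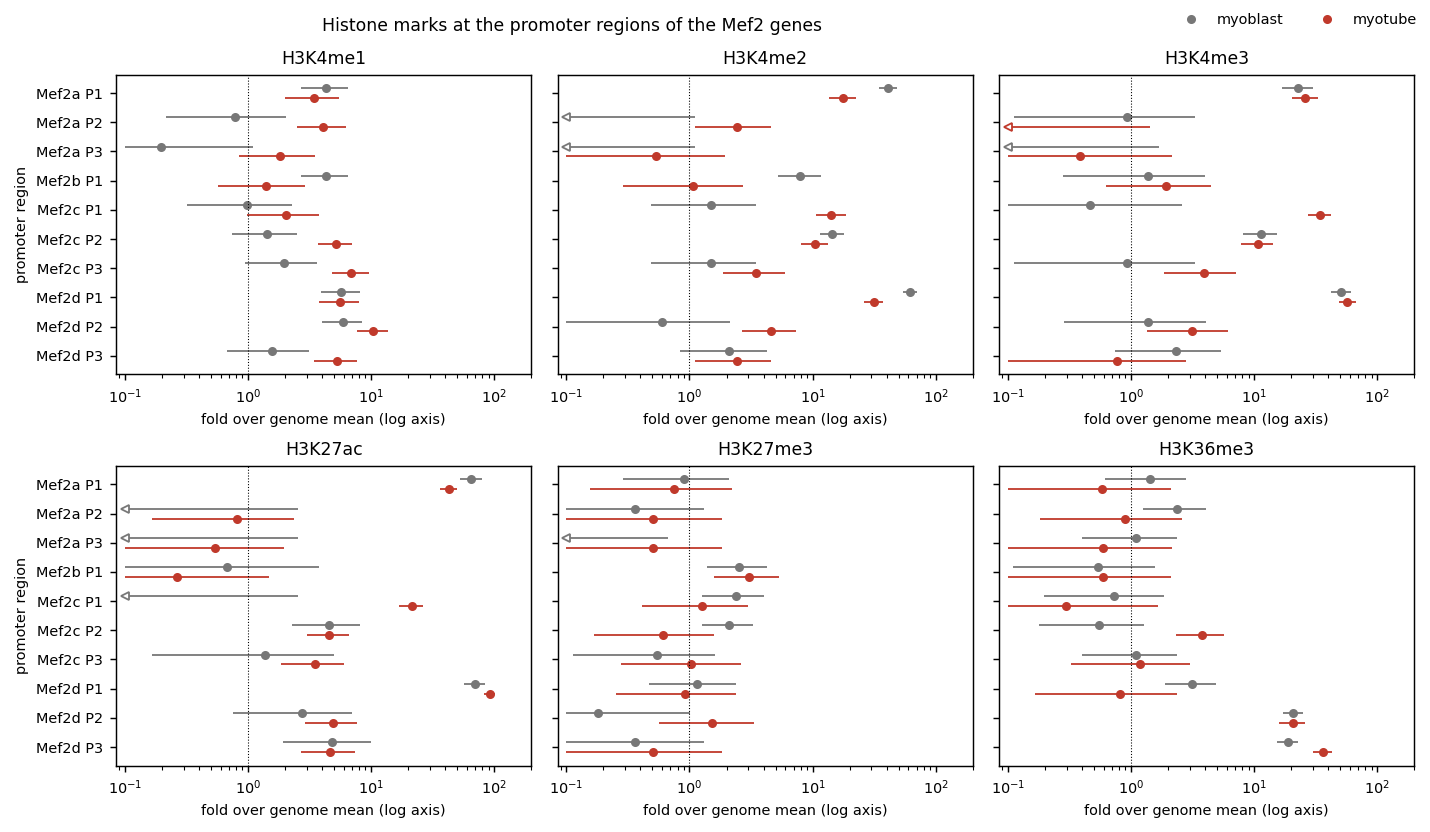
Fold over the genome mean (log axis) at the 10 promoter regions of Mef2a, Mef2b, Mef2c and Mef2d, with 1 panel for each histone mark. Points are the myoblast and the myotube library, bars are exact 95% Poisson intervals, which cover counting error only, and open triangles are counts of 0. Mef2c P1 is the promoter that goes from 0.461-fold to 34.1-fold for H3K4me3.

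At Mef2c P1, the promoter with 1 CpG in its sequence above, 1 H3K4me3 read was counted in myoblasts and 88 in myotubes. These counts are 0.461-fold (0.0117 to 2.57) and 34.1-fold the genome mean, a ratio of 74 with an interval of 12.9 to 2956. H3K27ac went from 0 reads to 79. With a floor of 3 reads, which would be 2.06-fold the genome mean, the myotube level of 21.4-fold was at least 10.4-fold higher. H3K4me2 went from 5 to 53 reads, a ratio of 9.57 (3.85 to 30.7). All 3 of these marks were thus at or near the genome mean in myoblasts and far above it in myotubes.

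The other marks at Mef2c P1 had few reads. H3K27me3 had 13 reads in myoblasts, 2.37-fold the genome mean (1.26 to 4.05), and 5 in myotubes, 1.27-fold. H3K4me1 had 5 and 10 reads, and H3K36me3 had 4 and 1. Each of these stayed below the minimum of 20 reads in the libraries of a mark together, so no change was called.

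Mef2c P2 behaved differently from P1 for H3K4me3. It had 41 reads in myoblasts and 46 in myotubes, 11.4-fold and 10.7-fold the genome mean, a ratio of 0.944 (0.606 to 1.47). In myoblasts it carried the only H3K4me3 peak of the gene, 2797 bp long. In myotubes the most strongly marked promoter was P1, at 34.1-fold.

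H3K27ac at P2 was at 4.56-fold in both cell types, from 11 and 28 reads, a ratio of 1 (0.483 to 2.23), so neither mark of active promoters differed by more than counting error there. H3K4me2 had 80 and 65 reads, a ratio of 0.733 (0.52 to 1.03), with a direction that turned with the scaling: 1.17 when the TSS windows in H3K4me3 peaks were set equal and 0.472 when windows without peaks were. H3K4me1 rose from 12 to 42 reads, a ratio of 3.61 (1.87 to 7.54). H3K27me3 fell from 19 reads to 4, from 2.08-fold to 0.614-fold the genome mean, a ratio of 0.295 (0.0729 to 0.887). That interval includes 0.772, the median over all TSS windows with enough reads, of which 22.0% were past 2-fold lower. H3K36me3, the mark of transcribed bodies, went from 5 to 21 reads, a ratio of 6.85 (2.51 to 23.2), in a stretch that lies downstream of P1.

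At Mef2c P3 in myotubes, H3K4me1 stood at 6.93-fold the genome mean (4.8 to 9.68) and H3K4me3 at 3.88-fold (1.86 to 7.13). These intervals overlap. H3K4me1 rose from 10 to 34 reads, a ratio of 3.51 (1.7 to 7.97). H3K4me3 had 2 and 10 reads, H3K4me2 5 and 13, and H3K27ac 2 and 13, all too few to be called.

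**Figure D2:**
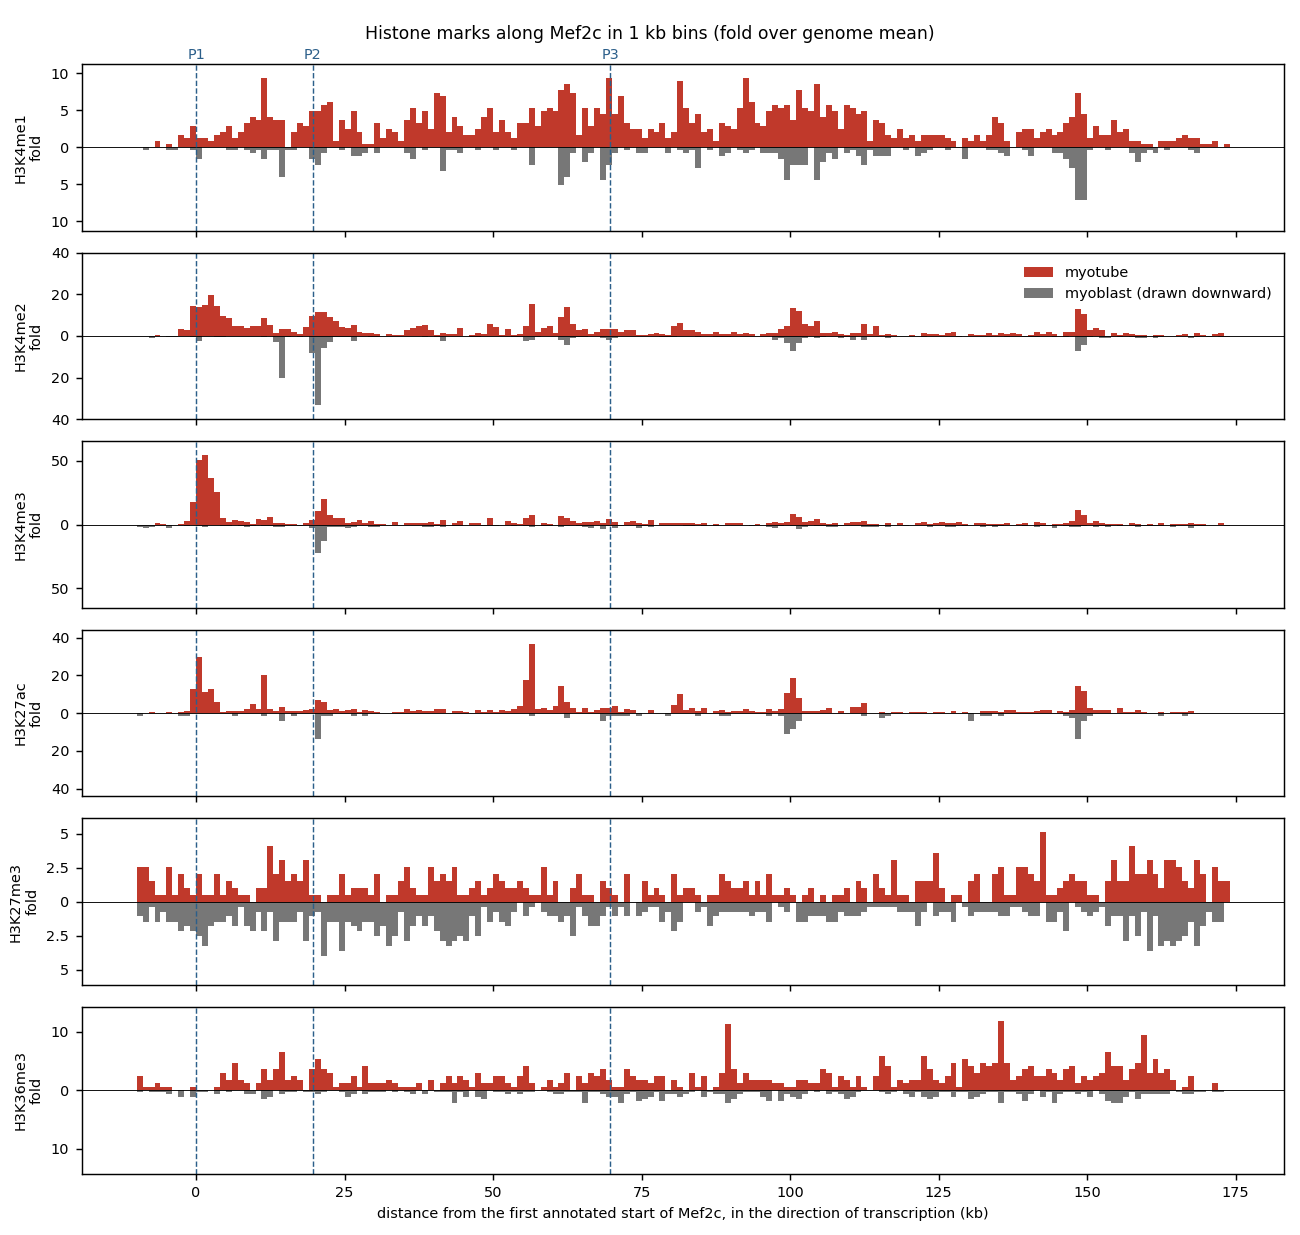
Reads of each mark along Mef2c in bins of 1 kb, as fold over the genome mean, against the distance from P1 in kb, with the myotube library drawn upward, the myoblast library downward and the 3 promoter regions marked. Signal of H3K4me3 and H3K27ac stands at P1 in the myotube library only, and H3K27ac peaks lie between the promoters.

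Inside Mef2c, H3K36me3 was higher in the myotube library in each of the stretches after P1. Between P1 and P2, H3K36me3 went from 19 to 60 reads, 0.392-fold to 2.02-fold the genome mean, a ratio of 5.15 (3.03 to 9.14). Between P2 and P3 it went from 0.498-fold to 1.56-fold, a ratio of 3.13, and after P3 from 0.822-fold to 2.71-fold, a ratio of 3.3. Intervals of the 3 ratios overlap in part (2.3 to 4.31 between P2 and P3, 2.79 to 3.91 after P3). The stretch between P1 and P2, upstream of the starts at P2, was thus above the genome mean for H3K36me3 in myotubes and below it in myoblasts.

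Acetylation rose most in the 2 upstream stretches. H3K27ac went from 6 to 138 reads between P1 and P2, a ratio of 9.05 (4.05 to 25.1), from 9 to 251 between P2 and P3, a ratio of 11 (5.69 to 24.3), and from 54 to 303 after P3, a ratio of 2.21 (1.65 to 3.01). The interval after P3 lies below the other two. In the stretch from 1 to 5 kb into the gene, chosen after the peaks were seen, H3K4me3 went from 3 to 157 reads and H3K4me2 from 2 to 110. The H3K4me3 peak of myotubes at P1 was 5079 bp long and extended into the gene.

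The myotube H3K27ac list held 16 peaks in Mef2c, of which 12 lay outside its TSS windows. The strongest, chr13:83698403-83700197, is centred 56267 bp from P1 in an intron of Mef2c and had 1 H3K27ac read in myoblasts and 98 in myotubes, 0.767-fold and 29.6-fold the genome mean. A peak at 11492 bp went from 1 to 37 reads and one at 61980 bp, the centre with a MEF2 site printed further on, from 2 to 23. Peaks at 99836 and 148768 bp were acetylated in both cell types, at 13.4-fold and 18.4-fold in myoblasts (6 and 9 reads) and 20.3-fold and 20.1-fold in myotubes (23 and 25 reads). Because the peaks were called on the myotube reads, higher counts there follow from how they were chosen.

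Other marks were counted at the same 12 peaks, 8909 bp in all. The peaks were chosen by H3K27ac in myotubes, so marks that go along with it can be higher there by the same choice. Ratios of these marks over all myotube H3K27ac peaks were not computed. H3K4me2 went from 53 to 208 reads, a ratio of 3.54 (2.61 to 4.88), and H3K4me3 from 12 to 156, a ratio of 10.9 (6.08 to 21.6). H3K4me1 was already at 3.15-fold the genome mean in myoblasts and at 5.54-fold in myotubes, a ratio of 1.76 (1.3 to 2.39). H3K27me3 had 30 and 12 reads, a ratio of 0.56 whose interval, 0.261 to 1.13, includes 1. At the strongest peak H3K4me1 had 6 and 19 reads and H3K4me2 had 3 and 36. Of all 12, 3 centred 1744, 2392 and 3007 bp from P1 lie under its H3K4me3 peak and share that signal. At the other 9, a split made after the data were seen, H3K4me3 went from 11 to 63 reads, a ratio of 4.82 (2.52 to 10.1), H3K4me2 from 52 to 149, a ratio of 2.59 (1.87 to 3.62), and H3K4me1 from 71 to 115, a ratio of 1.67 (1.23 to 2.28).

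The central 300 bases of 3 of these peaks are printed on the plus strand, the strongest one and the 2 with a MEF2 site in these central bases, with MEF2 sites and the E box CAGCTG in capitals. None of the 3 peaks overlaps an exon of Mef2c.
Strongest peak, chr13:83699151-83699450, plus strand: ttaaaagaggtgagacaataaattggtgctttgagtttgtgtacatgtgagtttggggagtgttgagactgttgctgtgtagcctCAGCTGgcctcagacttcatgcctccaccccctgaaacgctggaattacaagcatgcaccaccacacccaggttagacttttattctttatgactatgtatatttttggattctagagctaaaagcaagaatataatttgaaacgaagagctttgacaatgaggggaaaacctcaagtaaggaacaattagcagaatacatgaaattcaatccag
Peak with a MEF2 site in its centre, chr13:83704864-83705163, plus strand: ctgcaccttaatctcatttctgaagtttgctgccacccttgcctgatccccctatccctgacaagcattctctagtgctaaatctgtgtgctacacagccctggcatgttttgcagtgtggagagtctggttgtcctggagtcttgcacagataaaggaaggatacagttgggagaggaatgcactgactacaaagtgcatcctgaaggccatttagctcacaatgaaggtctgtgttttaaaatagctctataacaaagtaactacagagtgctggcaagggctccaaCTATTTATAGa
Peak with a MEF2 site and an E box in its centre, chr13:83742720-83743019, plus strand: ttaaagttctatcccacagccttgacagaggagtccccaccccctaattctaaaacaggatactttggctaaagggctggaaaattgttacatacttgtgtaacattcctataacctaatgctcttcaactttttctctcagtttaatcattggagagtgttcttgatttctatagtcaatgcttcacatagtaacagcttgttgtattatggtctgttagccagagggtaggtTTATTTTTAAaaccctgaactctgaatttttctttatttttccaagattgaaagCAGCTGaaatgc
Among the centres of all 47019 myotube H3K27ac peaks, 3.66% held a MEF2 site, 1.55% a CArG box and 21.9% the E box. In Mef2c, 2 of the 12 centres held a MEF2 site. Over their whole length 4 of the 12 peaks held 2 MEF2 sites each, the strongest one among them, with its sites outside the bases printed. These 4 are 571 to 1795 bp long. The share of all myotube H3K27ac peaks with a site over the whole length was not computed, so this count has no background. A match is a description of the letters and not evidence of binding.

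Mef2a, a broadly expressed member of the family, had H3K4me3 at its main promoter in both cell types. H3K4me3 at Mef2a P1 had 50 reads in myoblasts and 68 in myotubes, 22.7-fold and 26-fold the genome mean, a ratio of 1.14 (0.782 to 1.68). H3K27ac had 96 and 160 reads in libraries of unequal depth, 65-fold and 42.6-fold, a ratio of 0.656 that lies near the median of all TSS windows and became 1.14 when TSS windows in H3K4me3 peaks were set equal. H3K4me2 fell from 139 to 67 reads, a ratio of 0.435 (0.32 to 0.586), which was 0.695 or 0.28 under the other 2 scalings.

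The H3K4me2 of Mef2a fell before the start and rose further into the gene. In the 1 kb before the start it went from 115 reads to 35, a ratio of 0.275 (0.183 to 0.404), while from 1 to 5 kb into the gene it went from 22 to 126, a ratio of 5.17 (3.27 to 8.54). H3K4me3 from 1 to 5 kb into the gene went from 25 to 113 reads, a ratio of 3.8 (2.45 to 6.12), and its peak was 3215 bp long in myoblasts and 4931 bp in myotubes. Ratios at or above these were found for 4.68% of 8967 genes for H3K4me2 and 8.34% of 5673 genes for H3K4me3 in the same stretch, which was chosen after the peaks were seen. Medians over all genes moved the same way for H3K4me2, from 0.618 before the start to 1.1 from 1 to 5 kb. The H3K4me3 median from 1 to 5 kb was 1.26. Before the start, 92.2% of 10008 genes had an H3K4me2 ratio at or above that of Mef2a. The H3K4me3 level at the start itself differed by less than counting error, and the difference lay further into the gene.

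The inner starts of Mef2a carried little. At P2, H3K4me1 rose from 4 to 20 reads, a ratio of 5.16 (1.73 to 20.8), and H3K4me2 went from 0 to 9 reads. At P3, H3K4me1 had 1 and 9 reads. H3K4me3 and H3K27ac had at most 3 reads at either start in any library, so neither start carried the marks of an active promoter at this depth. Just before the P3 window, the bins of 1 kb that begin 72 and 73 kb into the gene held 0 reads in all 12 libraries. How well reads can be placed at P3 was not tested.

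**Figure D3:**
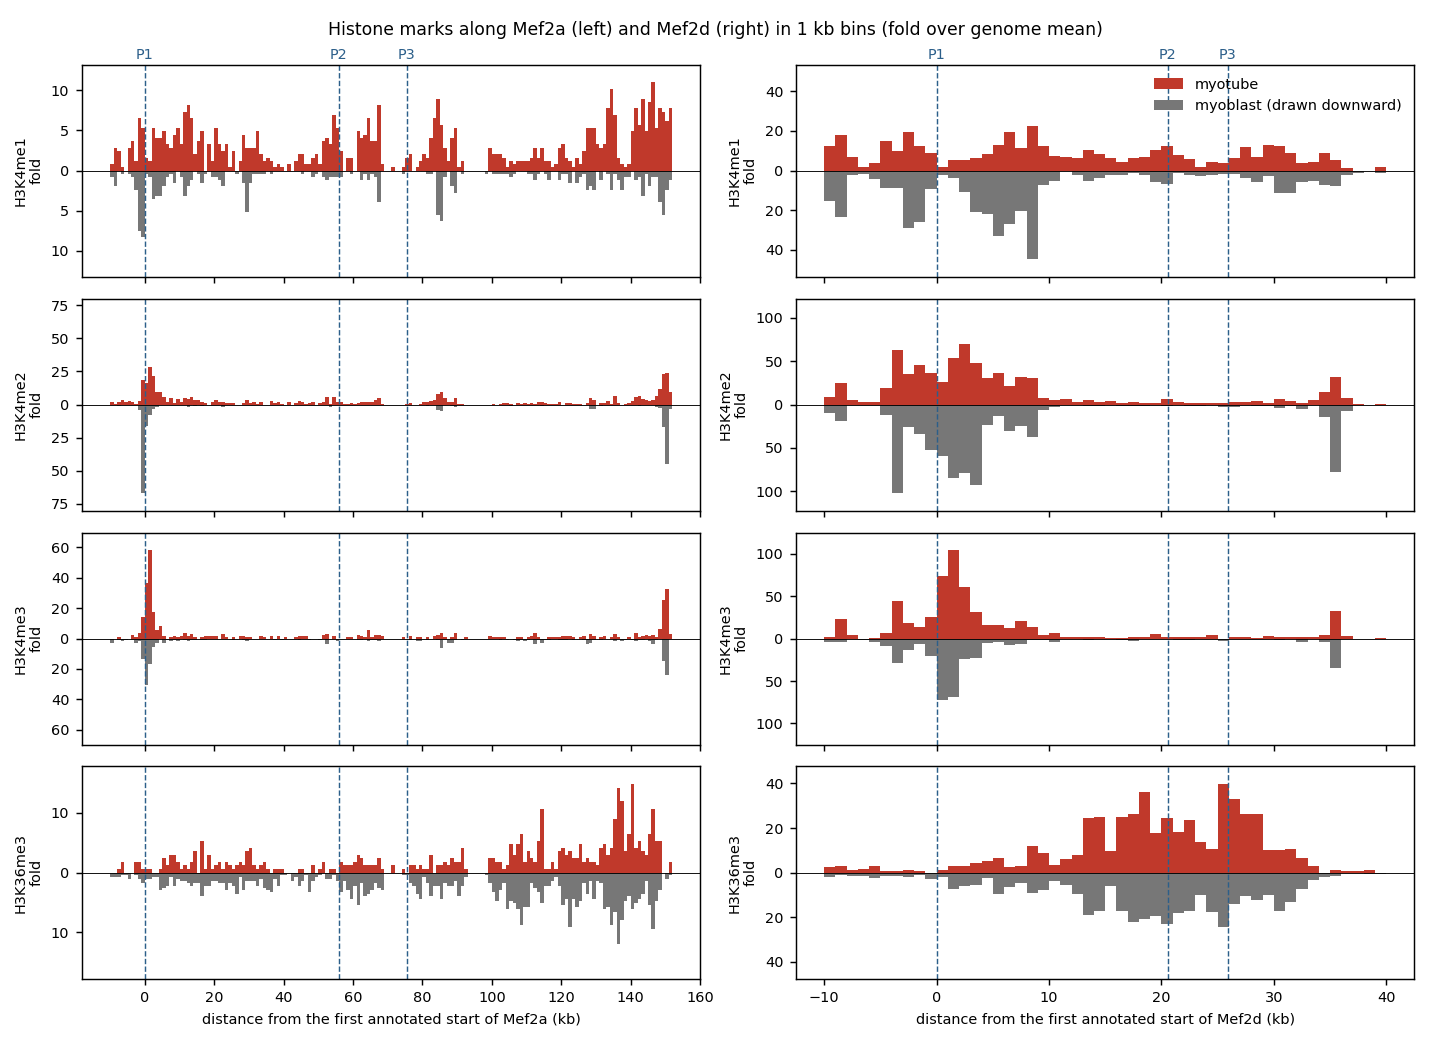
Reads of H3K4me1, H3K4me2, H3K4me3 and H3K36me3 along Mef2a and Mef2d in bins of 1 kb, as fold over the genome mean, against the distance from P1 in kb, with myotubes drawn upward and myoblasts downward. The myotube library shows H3K4me2 and H3K4me3 reaching further into Mef2a than the myoblast library.

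Mef2d P1 had the highest H3K4me3, H3K4me2 and H3K27ac of the family in both cell types, although its H3K27ac in myoblasts and that of Mef2a P1 (65-fold) differed by less than counting error. H3K4me3 at Mef2d P1 had 122 reads in myoblasts and 162 in myotubes, 51.1-fold and 57.1-fold the genome mean, a ratio of 1.12 (0.878 to 1.42). H3K27ac had 111 and 374 reads, 69.3-fold and 91.9-fold, a ratio of 1.33 (1.07 to 1.65), where the median TSS window was at 0.59, and the ratio was 2.31 with TSS windows in H3K4me3 peaks set equal. H3K4me2 fell from 227 to 129 reads, a ratio of 0.513 (0.41 to 0.639), close to its median of 0.602. Its H3K4me3 peak was 5519 bp long in myoblasts and 7957 bp in myotubes.

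For H3K4me3 and H3K4me1, differences around Mef2d P1 lay inside the gene. From 1 to 5 kb into the gene H3K4me3 rose from 111 to 245 reads, a ratio of 1.86 (1.48 to 2.34), and H3K4me1 fell from 162 to 63, a ratio of 0.402 (0.295 to 0.54). From the start to 1 kb, H3K4me1 had 8 and 7 reads, too few to be called. H3K4me2 fell as well, with a ratio of 0.351 (0.249 to 0.489) from the start to 1 kb and of 0.789 (0.686 to 0.907) from 1 to 5 kb. For comparison, 29% of genes had an H3K4me3 ratio at or above that of Mef2d in this stretch. H3K36me3 in the P1 region fell from 19 reads to 3, a ratio of 0.257 (0.0488 to 0.875).

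The inner starts of Mef2d carried mostly H3K36me3. H3K36me3 at P2 was 20.7-fold the genome mean in myoblasts and 20.5-fold in myotubes, a ratio of 0.987 (0.721 to 1.34). At P3 it went from 104 to 121 reads, 18.9-fold to 35.9-fold, a ratio of 1.9 (1.45 to 2.49), which passed 2-fold under both other scalings (2.33 and 2.12). H3K4me1 had 30 and 51 reads at P2, a ratio of 1.76, and 8 and 26 at P3, a ratio of 3.36 (1.48 to 8.58). H3K4me3 had at most 8 reads at either start, and no H3K4me3 peak was listed there.

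Mef2b, the shortest gene of the family, had less H3K4me1 and H3K4me2 at its starts in myotubes. At Mef2b P1, H3K4me1 fell from 22 reads in myoblasts to 7 in myotubes, 4.3-fold to 1.41-fold the genome mean, a ratio of 0.329 (0.119 to 0.796). H3K4me2 fell from 27 to 4 reads, 7.96-fold to 1.06-fold, a ratio of 0.134 (0.034 to 0.384). Both falls kept their direction under each scaling, at 0.265 to 0.345 for H3K4me1 and 0.086 to 0.214 for H3K4me2.

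Marks of activity were near background at Mef2b in both cell types, and H3K27me3 was above it. H3K4me3 had 3 and 5 reads, H3K27ac 1 and 1, and H3K36me3 3 and 2. H3K27me3 had 14 reads in myoblasts and 12 in myotubes, 2.53-fold and 3.03-fold the genome mean. Over the gene body H3K27me3 was 3.1-fold (2.58 to 3.69) in myoblasts and 3.29-fold in myotubes, the highest of the family in both. At 2 myoblast H3K4me2 peaks inside the gene, 5897 and 14244 bp from the start, reads fell from 34 to 9 and from 43 to 7, where peaks called in myoblasts are high by that choice.

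**Figure D4:**
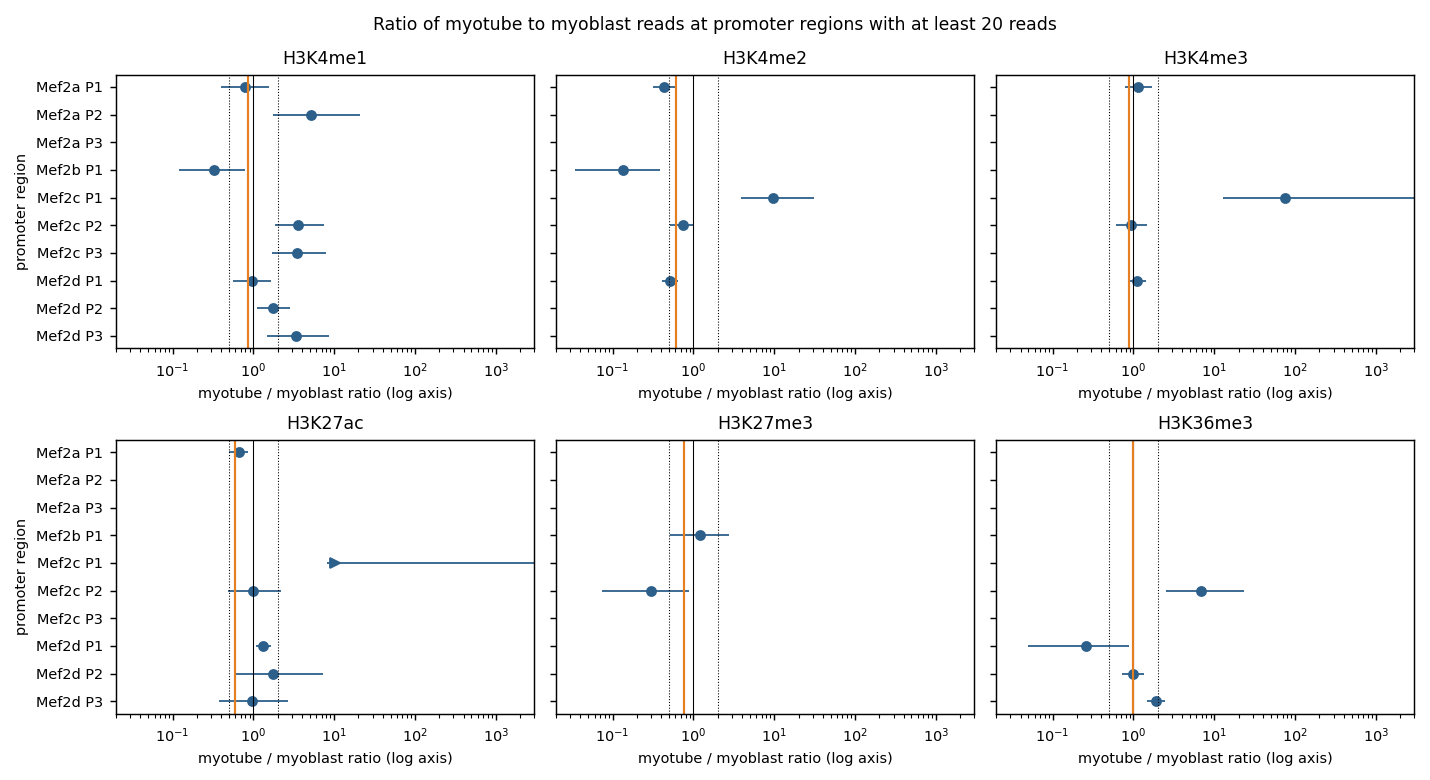
Ratio of the myotube over the myoblast library (log axis) at the 10 promoter regions, with 1 panel for each mark. Bars are exact conditional 95% intervals, which cover counting error only, the triangle is a lower bound with a count of 0 set to 3 reads, regions with fewer than 20 reads are left blank, dotted lines mark 2-fold, and the orange line is the median of all TSS windows. Mef2c P1 lies highest for H3K4me3 at 74.

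Counted start by start as the choice of members prescribes, a call needed a ratio past 2-fold and at least 20 reads in the libraries of the mark together. For H3K4me3, 1 of 9 starts with enough reads was higher (Mef2c P1) and 0 were lower, where 4.02% of all tested TSS windows were higher and 7.45% lower. For H3K27ac, 1 of 10 was higher (Mef2c P1) and 0 were lower, where the shares of all windows were 6.71% and 39.3%. With TSS windows in H3K4me3 peaks set equal, 6 of the 10 were higher for H3K27ac, which adds starts of Mef2d P1 and P2. The 4 starts of Mef2d P1 share most of their reads. The share of all windows that are higher under this scaling was not computed. The remaining 8 starts for H3K4me3 and 9 for H3K27ac showed no call under the scaling by total reads.

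H3K4me2 moved down at many starts of the family and of the genome. Of 12 starts, 1 was higher (Mef2c P1) and 7 were lower, 2 at Mef2a P1, 3 at Mef2b P1 and 2 at Mef2d P1. Over all windows 3.34% were higher and 35.3% lower. The number of lower starts was 3 with TSS windows in H3K4me3 peaks set equal and 11 with windows without peaks set equal, with 1 higher in each. Shares of all windows under these 2 scalings were not computed. Since starts of 1 promoter region share most of their reads, these 7 starts lie in 3 promoter regions and are not 7 separate observations.

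H3K4me1 was higher at 5 of 15 starts, at Mef2a P2, both starts of Mef2c P2, Mef2c P3 and Mef2d P3, and lower at the 3 starts of Mef2b P1. Over all windows 11.3% were higher and 20% lower. Those windows are of GENCODE M1 starts, whereas the first start of Mef2c P2 and that of Mef2c P3 come from RefSeq alone. Each of the 5 lies inside a gene, away from its 5' end. H3K4me1 also rose over the stretches around them, so the rise was not confined to the starts. Its ratios after P1, P2 and P3 were 3.3, 4.82 and 3.14 in Mef2a and 5.29, 5.37 and 3.47 in Mef2c. In Mef2d they were 0.803, 2.01 and 2.58. For H3K27me3, 0 of 3 starts passed 2-fold in either direction, where 3.75% of all windows were higher and 22.0% lower. The fall at Mef2c P2 given above is over its joined region, since neither of its windows alone held 20 reads. For H3K36me3, 1 of 3 starts was higher (the second start of Mef2c P2) and 0 were lower, beside 9.81% and 13.4% of all windows.

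Over whole gene bodies the members again differed. H3K36me3 over Mef2c rose from 305 reads to 633, 0.678-fold to 2.29-fold the genome mean, a ratio of 3.38 (2.95 to 3.89). Of 16067 gene bodies, 1.81% had a ratio at or above it, 7.55% were past 2-fold higher and 7.11% past 2-fold lower. The body of Mef2d was covered most densely, at 12-fold and 15.2-fold, a ratio of 1.26 (1.15 to 1.39). Mef2a went from 1003 to 469 reads, 2.57-fold to 1.96-fold, a ratio of 0.763 (0.682 to 0.852), and Mef2b stayed below the genome mean, at 0.643-fold and 0.766-fold from 26 and 19 reads. In order of the myotube level per length, Mef2d was followed by Mef2c (2.12 to 2.48) and Mef2a (1.79 to 2.15), whose intervals overlap, and then by Mef2b. In myoblasts Mef2a had been ahead of Mef2c. Bins of 1 kb that begin 69, 70, 72, 73 and 93 to 97 kb into Mef2a held 0 reads in all 12 libraries. Levels per length were not corrected for such stretches.

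**Figure D5:**
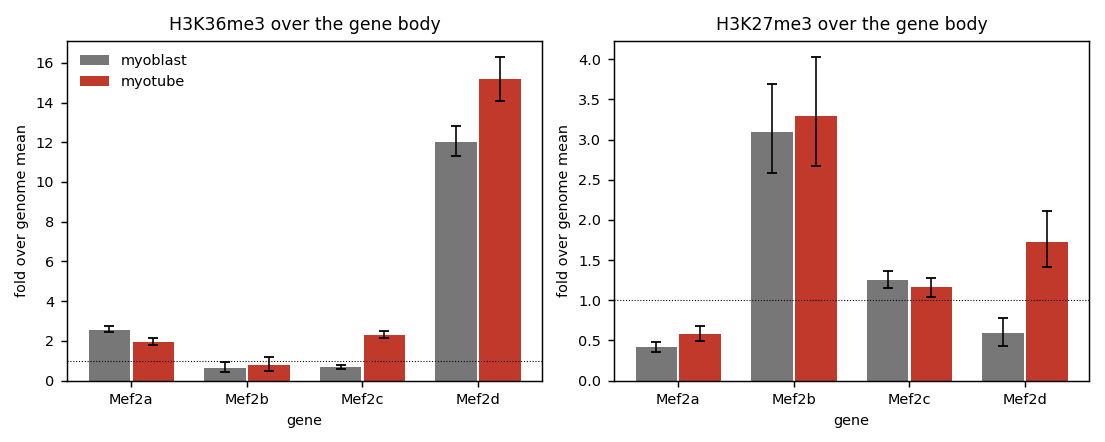
Fold over the genome mean of H3K36me3 and H3K27me3 over the bodies of the 4 genes in the myoblast and the myotube library. Bars are exact 95% Poisson intervals, which cover counting error only, and Mef2c goes from 0.678-fold to 2.29-fold for H3K36me3.

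H3K27me3 over gene bodies was lowest at Mef2a and Mef2d in myoblasts. At Mef2d it went from 48 to 101 reads, 0.589-fold to 1.73-fold the genome mean, a ratio of 2.94 (2.07 to 4.24) that 1.15% of 16507 gene bodies reached. Past 2-fold higher were 8.72% of these bodies, and 1.76% were past 2-fold lower. The ratio was 1.41 at Mef2a, 1.06 at Mef2b and 0.922 at Mef2c, none of them past 2-fold. The level of Mef2d in myotubes was below the 3.29-fold of Mef2b.

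The marks of enhancers rose over the bodies of the 2 long genes. H3K4me1 had a ratio of 3.4 over Mef2a and 4.04 over Mef2c, reached by 1.67% and 0.884% of 16850 gene bodies, and of 0.995 over Mef2d and 0.282 over Mef2b. H3K4me2 had ratios of 3.71 over Mef2a, 3.22 over Mef2c, 0.886 over Mef2d and 0.237 over Mef2b. For Mef2b, 1.63% of bodies had an H3K4me1 ratio as low. H3K27ac was at 3.78 over Mef2c, 1.68 over Mef2a, 1.31 over Mef2b and 1.03 over Mef2d. In windows without peaks the myotube libraries held 1.24 times the myoblast share of reads for H3K4me1 and 1.55 times for H3K4me2, and the part of this difference in the ratios over gene bodies was not tested.

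The deposited peak lists gave a similar account for H3K4me3, with 8 of the 17 starts within 1 kb of a peak in myoblasts and 9 in myotubes, where Mef2c P1 was the addition. These counts are near the shares of all TSS windows, 45.9% and 46%. For H3K4me2 the numbers were 11 and 10, beside 53.3% and 49.9% of all windows, with Mef2b P1 in a peak of myoblasts and Mef2a P2 and Mef2c P1 in peaks of myotubes. For H3K36me3 Mef2d P2 and P3 were in peaks of both cell types, as were 13.6% of all windows in myoblasts and 14.6% in myotubes. In myotubes 10 starts were near an H3K27ac peak and the 3 of Mef2b near an H3K27me3 peak, where 40.8% and 1.16% of all TSS windows were.

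For myoblasts the lists of the K27 marks do not match the reads. In the list attached to the H3K27me3 sample, H3K27ac reads of myoblasts stood at 36.4-fold the genome mean and H3K27me3 reads at 0.804-fold. In the list attached to the H3K27ac sample, H3K27me3 reads stood at 6.76-fold and H3K27ac reads at 0.588-fold. By the lists as deposited, 6 starts of the family, at Mef2a P1 and Mef2d P1, lie near an H3K27me3 peak of myoblasts and 0 near an H3K27ac peak, where these lists reach 44% and 3.89% of all TSS windows. With the lists exchanged, 6 are near an H3K27ac peak and 0 near an H3K27me3 peak. The read counts given above do not rest on these lists.

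Genes with the pattern most like that of a member were found by the distance over the 12 libraries between log2 values at the start with the most H3K4me3 reads. Nearest to Mef2c P1 were Cox6a2, a muscle subunit of cytochrome oxidase, at a distance of 2.1, Smpx, a small muscle protein, at 2.12, and Isx, an intestinal homeobox factor, at 2.14. All 3 had at most 2 H3K4me3 reads in myoblasts and 44, 140 and 71 in myotubes. Nearest to Mef2a were Fbxl2 (1.12), Ptpla (1.27) and Wwc2 (1.28). Nearest to Mef2d were Dnajb12 (1.18), Bet1l (1.2) and Dnajb6 (1.33), and nearest to Mef2b were Gm5134 (1.53), Fer1l4 (1.58) and Creb3l3 (1.59).

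The genes around the family in its pathway were taken from 4 lists, 44 genes in all, at the start with the most H3K4me3 reads. Most known MEF2 targets were higher in myotubes for H3K4me3, as were 8 of the 9 myotube markers, with a median ratio of 18.5. The rise was thus shared with genes picked as muscle markers, and Ckm is in both lists. The lists were chosen with earlier results of these data known. Of 15 targets, 13 had enough reads, 10 were past 2-fold higher and 0 lower, with a median ratio of 8.32, where 3.86% of genes were higher, 8.01% lower and the median was 0.869. Casq2, which stores calcium in the sarcoplasmic reticulum, went from 2 to 183 reads, a ratio of 77 (21 to 640), and Myoz2, a Z-disc protein, from 2 to 128, a ratio of 53.8 (14.6 to 449). Mb (myoglobin), Ckm (muscle creatine kinase), Hrc (a calcium-binding protein of the same reticulum) and Myom1 (a protein of the M band) also had 2 reads each in myoblasts. Their myotube reads were 47, 44, 41 and 34, and their ratios were 19.8 (5.18 to 168), 18.5 (4.83 to 158), 17.2 (4.48 to 147) and 14.3 (3.67 to 123). The other 4 were Smyd1, a muscle methyltransferase, with a ratio of 8.32, Klhl40 with 7.71, Xirp1 with 6.88 and Klhl31 with 4.32. For H3K27ac, 9 of 13 were higher, the same genes without Xirp1, with a median ratio of 8, beside 5.96% of genes higher and 40.9% lower.

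Among the repressors of MEF2, members moved in both directions. Hdac9, a class IIa deacetylase, went from 0 to 40 H3K4me3 reads, at least 11.2-fold higher, and from 3 to 35 H3K27ac reads, a ratio of 4.59 (1.45 to 23.3). Hdac5 rose for H3K4me3 from 26 to 113 reads, a ratio of 3.66. Hdac7 and Cabin1 fell for H3K27ac, at 0.217 and 0.296. With 4 of 5 having enough reads, 2 were higher and 0 lower for H3K4me3, and 1 higher and 2 lower for H3K27ac, beside the same shares of all genes as for the targets.

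Of 13 coactivators and partners, 11 had enough H3K4me3 reads and 1 was higher, Myog, the myogenic factor of differentiation, from 13 to 89 reads, a ratio of 5.76. For H3K27ac, Myog (6.82), Maml1 (2.52) and Myf6 (2.05) were higher and Mrtfb (0.393) and Ncoa2 (0.492) lower, of 12. Of all genes, 5.96% were higher and 40.9% lower for this mark. The interval of Myf6 (0.773 to 6.82) includes 1. That of Ncoa2 (0.291 to 0.839) includes the median of all genes, 0.577, and that of Mrtfb (0.288 to 0.537) lies below it. Among 11 genes that signal to MEF2, 0 of 10 were higher for H3K4me3 and 2 were lower, Camk2g (0.443) and Map2k6 (0.372), a kinase upstream of p38, where 3.86% of all genes were higher and 8.01% lower. For H3K27ac, 3 of 9 were lower, Camk2d (0.267), Mapk7 (0.422) and Ppp3r1 (0.456), where 40.9% of all genes were lower with a median of 0.577. The intervals of Mapk7 (0.3 to 0.594) and Ppp3r1 (0.307 to 0.68) include that median, and that of Camk2d (0.206 to 0.345) lies below it.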

How the data were processed

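ChIP-seq of 6 histone marks in C2C12 myoblasts and myotubes was analysed from 12 libraries, grouped by the labels. The authors aligned reads to mm9 with Mosaik and kept unique alignments. Each deposited line is 1 read of 34 bp, so the unit is counts of reads. The peaks were deposited with a score given by the authors' MACS run. Any merging of runs, duplicate removal and the MACS settings are not given in the sources used here, and no input library was used here.

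Reads were extended to 150 bp and midpoints counted within 1 kb of each TSS of GENCODE M1 on mm9. RefSeq starts (promoter table on GRCm38) were placed in mm9 by sequence match, 6 of 6 over 300 bases, a choice made after the data were seen. The first start of Mef2b P1, the first of Mef2c P2 and that of Mef2c P3 come from RefSeq alone. Windows of all genes were those of GENCODE M1 starts. Counts were scaled by reads on chromosomes 1 to 19 and X. Calls needed 20 reads and 2 fold, and counts of 0 stood at 3 reads. Intervals are exact Poisson (levels) and conditional binomial (ratios) at 95%. They cover counting error only. The members and lists were chosen with earlier results of these data known. All starts of members, the 3 genes nearest in pattern (Euclidean distance of log2 reads over expected, with 1 read added to each), and genes of the pathway lists past 2 fold for H3K4me3 or H3K27ac are named. Alternatives covered windows, extension, duplicates, scaling, minimum reads, starts and peaks. Counting and intervals were tested on simulated data. Python 3.11.15, numpy 2.4.6, pandas 2.3.3, scipy 1.17.1, matplotlib 3.10.9 and pysam 0.24.0 were used.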

Additional observations from a re-analysis of the deposited data

How the results depend on the processing

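No paired analysis was possible because each mark had 1 library per cell type and no test was made. With 1 library each, differences between cell types, cultures and immunoprecipitations cannot be told apart. Depth limits the calls: H3K27me3 and H3K36me3 had 20 reads at only 3 of 17 starts, and H3K27ac of myoblasts is the shallowest library. Of 261 alternative values of the ratios at promoter regions, 249 moved by less than their counting interval, and 0 called ratios changed direction. Of 108 alternative fold enrichments at promoter regions with at least 20 reads, 63 stayed within their interval. The cause of the moves was not tested.

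Shares of all TSS windows were not computed under the alternatives. The numbers of the 17 starts past 2-fold that moved by over 1.5 times were as follows. With windows of 500 bp either side, or with reads extended to 250 bp, H3K36me3 was higher at 0. With 2 kb either side, H3K4me2 was higher at 3 and lower at 3, H3K27me3 higher at 1 and lower at 2, and H3K36me3 higher at 2 and lower at 4. Setting TSS windows in H3K4me3 peaks equal gave 3 lower for H3K4me2, 6 higher for H3K27ac and 2 higher for H3K36me3. Setting windows of 10 kb without peaks equal gave 11 lower for H3K4me2 and 2 higher for H3K36me3, and body ratios of H3K36me3 of 0.852 at Mef2a and 1.41 at Mef2d. A minimum of 10 reads gave 3 higher for H3K4me2 and for H3K4me3, 2 higher for H3K27ac, 1 lower for H3K27me3, and 2 higher and 7 lower for H3K36me3. A minimum of 40 reads gave 1 higher and 0 lower for H3K4me1, 4 lower for H3K4me2 and 0 higher for H3K36me3. With no minimum, H3K4me2 was higher at 4, H3K4me3 higher at 3 and lower at 1, H3K27ac higher at 2 and lower at 3, H3K27me3 higher at 1 and lower at 1, and H3K36me3 higher at 2 and lower at 8. Calls past 1.5-fold gave 2 higher and 2 lower for H3K27ac and 2 higher for H3K36me3. GENCODE M1 starts alone, chosen after seeing the data, gave 3 higher for H3K4me1. Promoter regions counted once, also chosen then, gave 1 lower for H3K4me1, H3K27me3 and H3K36me3 each and 2 lower for H3K4me2.

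Among starts near a peak, a score of at least 100 left 0 for H3K4me1 and 0 for H3K27me3 in myotubes. Peaks that cover the start itself left 0 for H3K4me1 in myoblasts and in myotubes and 0 for H3K27me3 in myotubes. Exchanging the lists of the K27 marks of myoblasts gave 0 for H3K27me3 and 6 for H3K27ac.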
